A study of Mus musculus with 18 samples.

Results

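The early response of mouse astrocytes to neurons was read from 6 of the 18 libraries of the series: astrocytes kept with hippocampal neurons for 2 days against astrocytes kept alone for the same time, with 3 libraries in each group. The libraries were chosen by their labelled day and culture, and the labels give the co-culture and the astrocytes-alone library of a replicate number one date, so that they form 3 pairs. The astrocytes came from the cortex of newborn (P0) mice and had been in culture for about 2 weeks, in DMEM with fetal bovine serum until confluent and then in N2 medium, in both groups. The neurons were P0 hippocampal cells of mice that carry the red fluorescent protein TdTomato. All cells were detached with TrypLE and sorted by that fluorescence, with the gate for TdTomato-negative cells set on astrocytes grown alone. The labels name no strain, no other allele and no number of animals per culture, and do not say that the replicates came from separate animals, so the p-values here measure the spread between these cultures. The comparison addresses which transcripts of the sorted astrocytes differ when neurons are present. Contact and secreted signals cannot be told apart in it.

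Astrocytes meet neurons at synapses and along axons. They take up glutamate, release cholesterol carried on apolipoprotein E, secrete proteins that promote synapse formation, and carry Notch receptors and Eph receptors that bind ligands on the surface of neighbouring cells. Purified astrocytes raised in serum divide and resemble immature or reactive cells, and contact with neurons is known as a signal for their maturation. Cholesterol supply is governed by SREBP2, the product of Srebf2, a membrane-bound transcription factor that is cut and moves to the nucleus when sterols are low and that drives the genes of cholesterol synthesis.

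Apart from replicate 1 of astrocytes alone, the libraries held between 16124682 and 29220636 reads on genes. Replicate 1 of astrocytes alone held 3242459 reads, of which 92.5% fell on 1 gene of the table (Entrez ID 19791, with no symbol in the name tables used). It had at least 10 reads on 1820 genes, against 13867 or more in each of the others, and 3 reads in it correspond to 20.2 CPM. Levels are given in CPM, reads scaled to a common library size after TMM normalization, which divides each library by a factor set on the bulk of its genes. In pair 1, differences are therefore given for genes with at least 10 reads in that library only, and each result is also given without it, by the fit of 17 libraries or by pairs 2 and 3, which do not use it. Differences within a pair are co-culture minus alone of log2(CPM + 2), which understates changes of low genes. Astrocyte markers were present in each library: the water channel gene Aqp4 measured 74.0 to 1224 CPM over the 3 libraries of astrocytes alone and 205 to 903 CPM over the co-cultures, and the folate enzyme gene Aldh1l1 80.7 to 339 and 275 to 332 CPM.

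No gene passed the test at day 2. Of 16539 genes tested with edgeR's quasi-likelihood F test over all 18 libraries, 0 (0%) had an adjusted p under 0.05, and the smallest adjusted p was 1. At an unadjusted p under 0.05, 78 genes were higher in co-culture (0.472%) and 310 lower (1.87%). Without the smallest library, 0 of 17139 genes (0%) were called, and 70 (0.408%) and 268 (1.56%) had an unadjusted p under 0.05. The other tools gave 17 calls (DESeq2, 0.102%) and 0 calls (limma-voom with library weights). Of the DESeq2 calls 3 were higher (0.018%) and 14 lower (0.084%), and 4 of the lower ones were the mitochondrial genes ND1, ND2, ND5 and ND6, which are high in the smallest library. In these bulk libraries, fewer cells of a type and less RNA per cell cannot be told apart.

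Fits with the replicate number as a block gave 0 calls over all 18 libraries and over 17, and calls in smaller sets of libraries. Fitted with the replicate number as a block, the 6 libraries of day 2 gave 26 calls of 14595 genes (0.178%), 16 higher (0.11%) and 10 lower (0.0685%) in co-culture, by edgeR's quasi-likelihood test. The 4 libraries of pairs 2 and 3 alone, a fit added after seeing the data, gave 42 calls of 15229 (0.276%), 21 higher and 21 lower (0.138% each). In both, 8 genes were called, 6 higher (among them Anxa11, Lyz2, Dcx, Ubb-ps and Amd2) and 2 lower (ND1 and ND6). The first of these fits has 2 residual degrees of freedom and the second 1, so that in both the error of a gene comes almost wholly from the trend shared by all genes. Over 8798 genes of at least 10 CPM the differences of pairs 2 and 3 correlated across genes at a Pearson r of 0.08 (Spearman 0.09). That is a description, since the genes share libraries and are not replicates. Of all tested genes, 3638 (22%) were higher in co-culture in both of these pairs and 4605 (27.8%) lower in both, and the counts below are read against these shares.

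**Figure D1:**
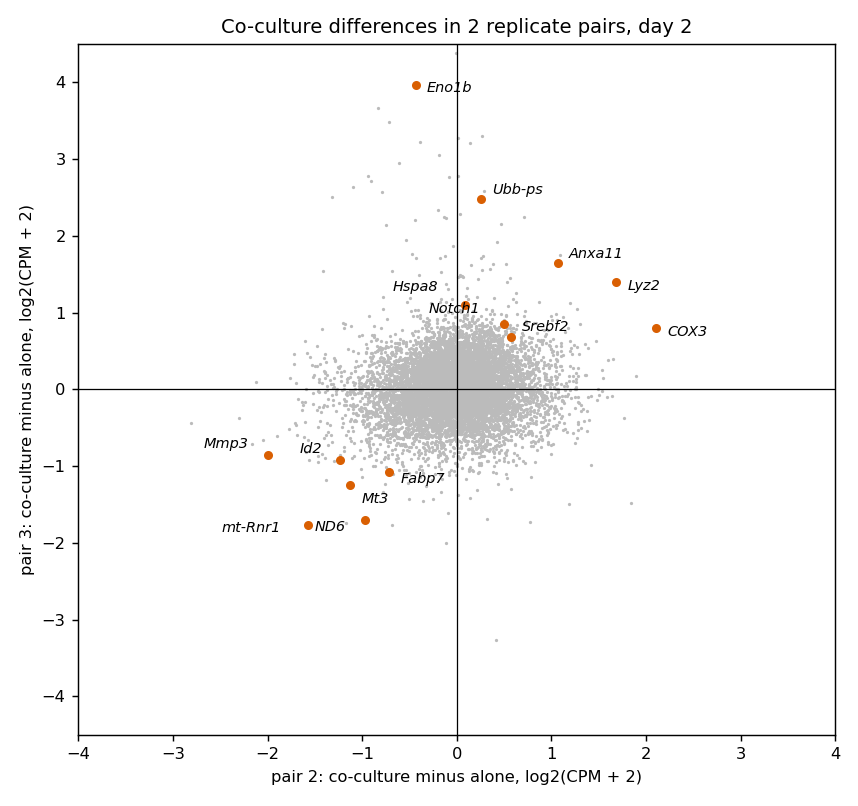
Each point is 1 of 8798 genes: the horizontal axis is its co-culture minus alone difference in pair 2 and the vertical axis the same in pair 3, both as log2(CPM + 2). The cloud has no common slope to the eye (r = 0.08), and the labelled genes are those described in the text, with Anxa11, Lyz2 and COX3 at the upper right and Mt3, Id2, Mmp3, ND6 and mt-Rnr1 at the lower left.

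Cholesterol genes leaned upward in co-culture, with Srebf2 among them. Of the 25 tested members of the cholesterol list, 12 were higher in both pairs 2 and 3 (48%, against 22% of all tested genes) and 2 lower in both (8%, against 27.8%). None was called over the 18 libraries. The median fitted difference of the list was 0.34 on the log2 scale, against 0.04 over all tested genes, 0.13 without the smallest library (all genes −0.02), and 0.56 in pair 2 against 0.06 in pair 3. The direction of the median was the same in 24 of 24 alternative settings.

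Srebf2 (Entrez 20788), the gene of SREBP2 itself, measured 67.2, 157 and 159 CPM alone and 176, 235 and 257 CPM in co-culture. All 3 co-cultures lay above all 3 cultures of astrocytes alone, as they did for 539 of all tested genes (3.26%). With the smallest library left out, 775 tested genes (4.69%) lay apart with co-culture higher, Srebf2 included, and 1234 (7.46%) with co-culture lower. The smallest library had 10 Srebf2 reads. The differences in the 3 pairs were 1.36, 0.58 and 0.68, and the fitted log2 difference was 0.74 (SE 0.34, unadjusted p = 0.0427, adjusted p = 1, edgeR), or 0.48 without the smallest library. Neither paired fit called it. Of its partners, Scap, the sterol-sensing escort of SREBP2, measured 269, 220 and 137 CPM alone and 370, 238 and 208 CPM in co-culture and was higher in each pair, though the groups overlapped. Insig1, which holds that escort in the endoplasmic reticulum and is itself a target of the pathway, measured 13.4, 32.7 and 181 CPM alone and 85.3, 79.6 and 219 CPM in co-culture. Its difference was 1.23 in pair 2 and 0.27 in pair 3, and its levels in astrocytes alone spanned a wider range than any of these differences.

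The enzymes named here gave no common direction. Sqle, the squalene epoxidase, was higher by 0.47, 0.68 and 0.06 in the 3 pairs, from 94.1, 88.9 and 211 CPM to 132, 144 and 221 CPM. Sc5d, Fdps and Nsdhl, enzymes of the same route, were higher in pair 2 (0.79, 0.83 and 0.89) and lower in pair 3 (−0.40, −0.43 and −0.61), and Ebp and Pmvk were lower in both. Hmgcs1, a member by rule, had 0 reads in all 6 libraries and was not tested.

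The promoters of 2 of these genes are shown because Srebf2 and Insig1 belong to the feedback loop of the pathway. RefSeq's table for GRCm38.p6 held promoters for 18 of the list's genes. The letters TCACCCC, a core of the sterol regulatory element bound by SREBP2, and CACGTG, an E-box that SREBPs also bind, were searched on both strands in windows of 300 bases. TCACCCC was in the windows of 5.61% of all genes in the table and in 2 of the 18 (Hmgcs1 and Srebf2), and CACGTG in 8.09% and 5 of the 18 (Dhcr7, Hsd17b7, Insig1, Sc5d and Scap). A match is a description of letters, not a measured site. The matches are in capitals below. The Srebf2 window is chr15:82147019-82147318 and the Insig1 window chr5:28071162-28071461, both on the plus strand of GRCm38.p6. The capitals are TCACCCC in the first and CACGTG in the second.
Srebf2: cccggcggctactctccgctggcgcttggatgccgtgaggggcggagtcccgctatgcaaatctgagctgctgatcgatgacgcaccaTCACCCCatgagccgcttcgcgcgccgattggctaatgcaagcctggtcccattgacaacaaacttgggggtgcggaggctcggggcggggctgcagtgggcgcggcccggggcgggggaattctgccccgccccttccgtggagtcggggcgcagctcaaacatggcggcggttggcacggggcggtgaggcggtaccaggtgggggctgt
Insig1: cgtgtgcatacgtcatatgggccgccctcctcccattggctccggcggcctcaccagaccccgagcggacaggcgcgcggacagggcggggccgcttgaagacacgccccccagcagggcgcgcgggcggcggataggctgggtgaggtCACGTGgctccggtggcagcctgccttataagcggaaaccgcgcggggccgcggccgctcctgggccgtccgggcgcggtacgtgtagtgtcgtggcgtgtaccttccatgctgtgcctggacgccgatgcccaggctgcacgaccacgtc

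Fatty acid synthesis, run by the related factor SREBP1, showed a like count and a smaller median. Of 13 tested genes, 6 were higher in both pairs and 2 lower in both, and the median fitted difference was 0.10 (−0.01 without the smallest library, and of the same sign in 19 of 24 settings). Fasn, the fatty acid synthase, measured 101, 298 and 396 CPM alone and 257, 404 and 692 CPM in co-culture, higher in each pair by 1.33, 0.44 and 0.80, with overlapping groups (fitted 0.73, SE 0.57, adjusted p = 1, edgeR). Srebf1, the factor's own gene, was higher by 0.40 in pair 2 and 0.65 in pair 3. The desaturases Scd1 and Scd2 were within 0.13 of no difference in both pairs.

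**Figure D2:**
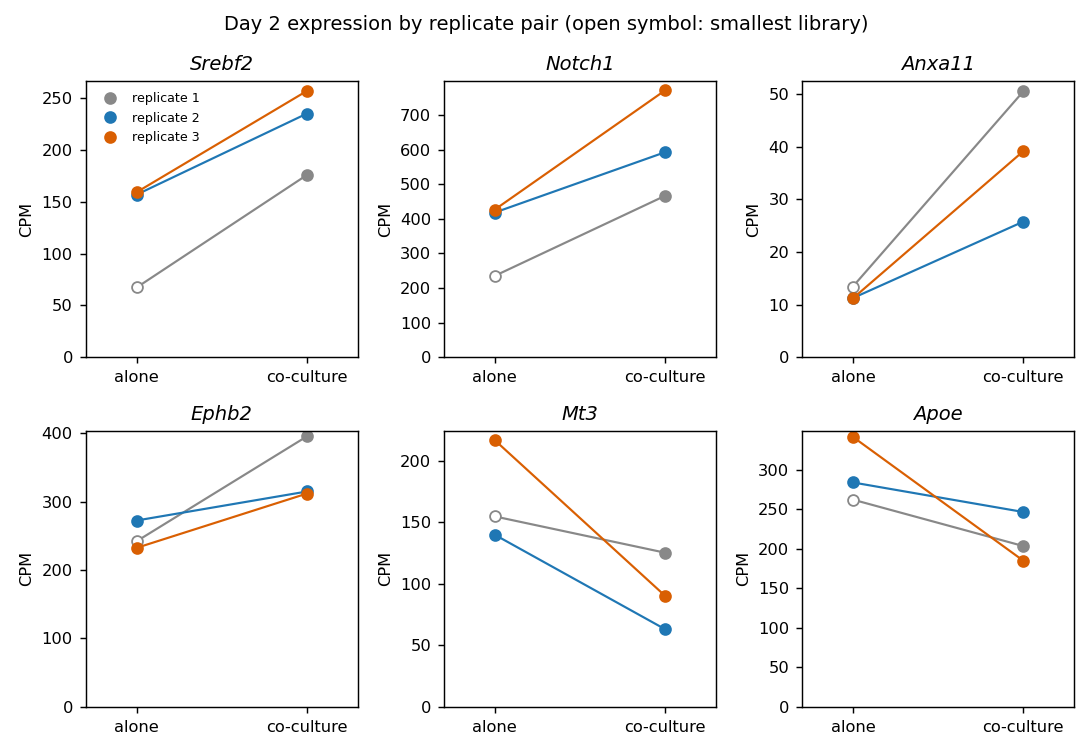
Plotted are 6 genes at day 2, with CPM on the vertical axis from 0 and a line for each replicate pair from astrocytes alone (left) to co-culture (right); the open circle is the smallest library. Srebf2, Notch1, Anxa11 and Ephb2 are higher in co-culture in each pair and Mt3 and Apoe lower, with no overlap between the 3 and 3 values of any of the 6.

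Notch1 and Notch2 were higher in co-culture in each pair, and no such common direction was seen in their target genes. Notch1 (Entrez 18128) measured 235, 418 and 427 CPM alone and 467, 593 and 772 CPM in co-culture, without overlap. Its differences were 0.98, 0.50 and 0.85 in the 3 pairs, and its fitted log2 difference was 0.74 (SE 0.30, unadjusted p = 0.024, adjusted p = 1, edgeR), or 0.52 without the smallest library. Notch2 measured 329, 802 and 530 CPM alone and 518, 1003 and 952 CPM in co-culture, higher in each pair by 0.65, 0.32 and 0.84, with overlapping groups. Neither paired fit called either receptor.

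Targets that the cut Notch receptor switches on gave no common direction. The repressor gene Hes1 measured 40.3, 24.2 and 25.1 CPM alone and 35.7, 21.3 and 25.9 CPM in co-culture. Its relative Hey1 measured 28.7 and 85.7 CPM alone in replicates 2 and 3 and 31.2 and 76.4 CPM in co-culture, and Hes5 was under 3 CPM in each library. Over the 13 tested receptors and targets, 2 were higher in both pairs and 1 was lower. The one that was lower in both is Fabp7, the brain fatty acid binding protein of radial glia and immature astrocytes: 151 and 295 CPM alone against 91.3 and 139 CPM in co-culture in replicates 2 and 3. The 4-library paired fit put it just outside the threshold (−0.90, SE 0.24, adjusted p = 0.0568), and in replicate 1 it measured 47.1 CPM alone, from 7 reads, against 101 CPM. Of the 7 tested ligands 2 were higher and 2 lower in both pairs (28.6% each). Jag1 was higher in each pair by 0.90, 0.26 and 0.46 (80.7, 164 and 75.7 CPM alone, 153, 197 and 105 CPM in co-culture). Dlk1, a non-canonical ligand, measured 26.9, 3.31 and 2.40 CPM alone, the first from 4 reads, and 0.831, 0.716 and 1.98 CPM in co-culture (unadjusted p = 0.0497, adjusted p = 1, edgeR).

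Ephrins and Eph receptors, another family of contact signals, held 9 of 18 members higher in both pairs (50%, background 22%) and 2 lower in both. Ephb2, a receptor for ephrin-B ligands, measured 242, 272 and 232 CPM alone and 395, 315 and 312 CPM in co-culture, without overlap (fitted 0.45, SE 0.43, adjusted p = 1, edgeR, and 0.42 without the smallest library). Epha4, another receptor for ephrins, was higher in each pair by 1.22, 0.14 and 0.15, from 80.7, 217 and 201 CPM to 190, 240 and 222 CPM. The ligand genes Efnb1 and Efnb2 were higher by 0.27 and 0.35 in pair 2 and by 0.50 and 0.22 in pair 3. The median of the family was 0.14 over the 18 libraries and 0.33 without the smallest, positive in 21 of 24 settings, the exceptions being upper-quartile scaling and the fits without replicate 2 or 3. Several of the 9, such as Efna1, Efna3 and Efnb3, lay under 6 CPM in the libraries of replicates 2 and 3.

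Genes of astrocyte identity leaned the other way within pairs 2 and 3. None of 25 tested members was higher in both pairs, and 11 were lower in both (44%, background 27.8%). None was called over the 18 libraries or in the 4-library paired fit. The median was −0.19 in each of pairs 2 and 3, −0.02 over 18 libraries and −0.40 without the smallest library, and 0.75 over the 12 members with enough reads in pair 1. Its direction held in 17 of 24 settings, and the median was 0.46 when replicate 3 of astrocytes alone was left out.

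Glutamate transporters show this pattern. Slc1a2, encoding GLT-1, measured 300 and 148 CPM alone in replicates 2 and 3 and 194 and 127 CPM in co-culture (−0.63 and −0.21). Slc1a3, encoding GLAST, measured 141, 257 and 832 CPM alone and 304, 171 and 775 CPM in co-culture: higher by 1.10 in pair 1, lower in the others. Glul, the glutamine synthetase, measured 101, 318 and 506 CPM alone and 193, 249 and 443 CPM in co-culture, again with pair 1 opposite to the others. Of the 12 tested genes of glutamate and GABA uptake, 6 were lower in both pairs and 1 higher. Gfap, the intermediate filament of astrocytes, measured 60.5, 527 and 1245 CPM alone and 108, 460 and 1467 CPM in co-culture, a difference far smaller than the spread between replicates.

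Mt3, Apoe and Cst3, a metal-binding protein and a pair of secreted proteins of astrocytes, were lower in co-culture in each pair. Mt3 (Entrez 17751), the brain metallothionein that binds zinc and copper, measured 155, 140 and 217 CPM alone and 125, 63.0 and 90.1 CPM in co-culture, without overlap, as 376 tested genes (2.27%) did in this direction. Its differences were −0.30, −1.12 and −1.25, its fitted log2 difference −0.89 (SE 0.44, unadjusted p = 0.0578, edgeR) and −0.95 without the smallest library. The 4-library paired fit called it (−1.20, SE 0.24, adjusted p = 0.00132) and the 6-library one did not (adjusted p = 0.289). Apoe, the carrier of astrocyte lipid, measured 262, 284 and 342 CPM alone and 203, 247 and 185 CPM in co-culture, without overlap and lower in each pair by values of −0.36, −0.20 and −0.88. Neither the 18-library fit nor the paired fits of edgeR called Apoe (fitted −0.49, SE 0.38). Cst3, the protease inhibitor cystatin C, was lower in each pair (−3.06, −0.41 and −0.89), but its call in the 6-library paired fit (adjusted p = 0.049) rests on the smallest library, where it measured 1311 CPM against 224 and 106 CPM in the other cultures alone.

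Inhibitor of DNA binding genes are transcriptional targets of BMP signals, and Id1 and Id2 were lower in co-culture in pairs 2 and 3. Id1 measured 141, 116 and 80.1 CPM alone and 89.2, 68.3 and 63.1 CPM in co-culture, lower in each pair with values of −0.65, −0.74 and −0.34 (fitted −0.57, SE 0.42). Id2 measured 38.6 and 82.8 CPM alone in replicates 2 and 3 and 15.2 and 42.9 CPM in co-culture, and was called in the 4-library paired fit (−1.14, SE 0.29, adjusted p = 0.0298). Id3 was lower in pair 2 (−0.43) and higher in pair 3 (0.27). Over the 15 tested genes of the BMP list 5 were lower in both pairs (33.3%, near the background of 27.8%) and 2 higher. Ptn, the growth factor pleiotrophin, named after its values were seen, measured 0, 14.2 and 15.4 CPM alone and 1.36, 2.15 and 3.25 CPM in co-culture (4-library paired fit −2.47, SE 0.54, adjusted p = 0.00552).

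**Figure D3:**
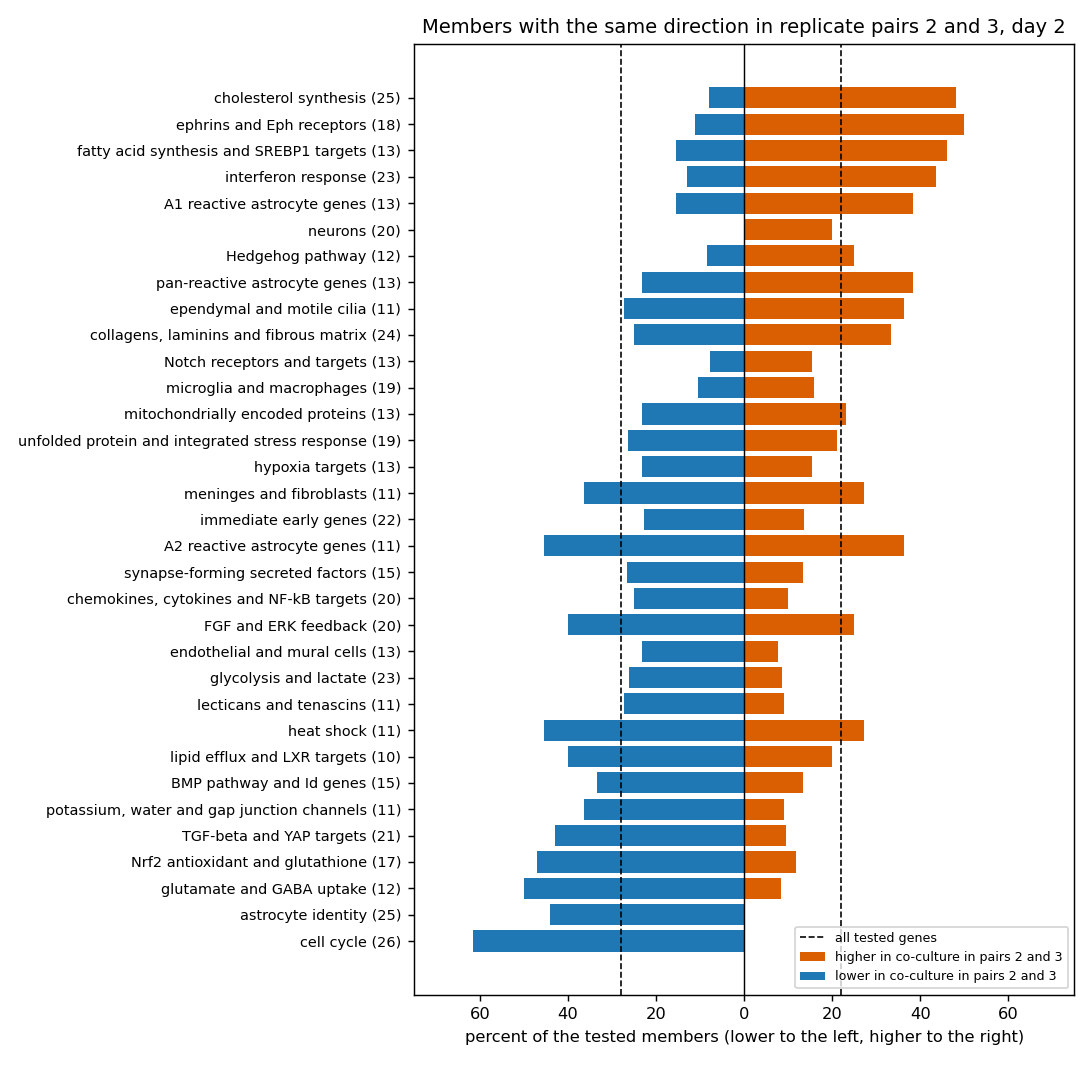
Gene lists with at least 10 tested members (number in brackets): bars to the right give the percent of members higher in co-culture in both pairs 2 and 3, bars to the left the percent lower in both, and the dashed lines the same over all tested genes (22 and 27.8). Cholesterol genes and ephrins and Eph receptors stand furthest to the right (48% and 50%), and cell cycle genes furthest to the left (61.5%).

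Of the 37 lists, 12 held more members higher than lower in both pairs, 22 more lower than higher and 3 as many of each, and none held a gene called over the 18 libraries. Cell cycle genes had the largest share lower in both pairs among the lists with at least 10 tested members. Of 26 tested members, 16 were lower in co-culture in both pairs (61.5%, background 27.8%) and 0 higher in both. The median was −0.32 over 18 libraries, −0.50 without the smallest, −0.68 in pair 2 and −0.39 in pair 3, and its direction was the same in 24 of 24 settings. None was called in any of the paired fits, and none had 10 reads in the smallest library, so pair 1 says nothing about them. All were low: Top2a, the topoisomerase of dividing cells, measured 46.0 and 36.5 CPM alone and 40.4 and 15.9 CPM in co-culture in replicates 2 and 3. Rrm2, the ribonucleotide reductase subunit that supplies nucleotides for replication, measured 31.6 and 17.6 CPM alone and 18.9 and 10.9 CPM in co-culture. The mitotic activator Cdc20 measured 12.3 and 3.67 CPM alone and 2.60 and 2.02 CPM in co-culture, and cyclin A2 (Ccna2) 11.3 and 12.8 CPM against 5.60 and 7.06 CPM. Mcm3, Mcm4, Mcm5 and Mcm6, parts of the helicase that opens DNA for replication, were lower in both pairs, by values from −0.28 to −1.02. Mki67 had 0 reads in 3 of the 6 libraries and belongs to a set of genes described below.

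Matrix and contractile genes depended on the pair. Thbs1, the synapse-promoting thrombospondin, measured 1815, 2330 and 1064 CPM alone and 5159, 3171 and 1391 CPM in co-culture, higher in each pair by 1.51, 0.44 and 0.39 (fitted 0.90, SE 0.56, adjusted p = 1, edgeR). Tnc, the matrix glycoprotein tenascin C, measured 1089, 1860 and 696 CPM alone and 2823, 2093 and 1048 CPM in co-culture. Flna, the actin crosslinker filamin A, measured 988, 1588 and 1356 CPM alone and 2517, 1691 and 1757 CPM in co-culture, without overlap. Laminin genes Lama5 and Lamb2 were higher in each pair (0.57, 0.36 and 0.72, and 0.46, 0.16 and 0.90). In contrast Acta2, smooth muscle actin, was higher only in pair 1 (383 against 1122 CPM) and lower in pairs 2 and 3 (405 and 281 against 188 and 192 CPM). Of the 21 tested targets of TGF-beta and YAP, 9 were lower in both pairs 2 and 3 and 2 higher, although the fitted median was 0.42, and the median over the 18 members measured in pair 1 was 1.06 (−0.11 in pair 2, −0.12 in pair 3). Without the replicate 1 co-culture the fitted median was −0.12. Gpc6, the glypican that recruits AMPA receptors to synapses, was lower in each pair with values of −0.34, −0.32 and −0.27, and its relative Gpc4 gave no common direction.

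Interferon response genes held 10 of 23 members higher in both pairs (43.5%, background 22%) and 3 lower, with a median of 0.27 over 18 libraries and 0.28 without the smallest, positive in 22 of 24 settings (leaving out the replicate 2 co-culture gave −0.11, and leaving out replicate 3 of astrocytes alone −0.14). None was called in any of the paired fits. Tap1, the peptide transporter of antigen presentation, was higher by 0.16 in pair 2 and 0.92 in pair 3. Isg15 was lower in both (−0.52 and −0.43). Of the 13 pan-reactive astrocyte genes 5 were higher in both pairs and 3 lower, and of the 13 A1 genes 5 were higher (38.5% in each list, background 22%) and 2 lower. None was called over the 18 libraries. S1pr3, a sphingosine 1-phosphate receptor, was higher in each pair by 1.04, 0.12 and 0.53, and H2-D1, a class I antigen-presenting gene, by 0.96, 0.48 and 0.63. Lcn2, a secreted lipocalin of reactive astrocytes, was higher in pair 1 (316 against 909 CPM) and lower in pairs 2 and 3 (1877 and 730 against 1476 and 474 CPM).

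Markers of microglia and macrophages differed by replicate more than by culture. Summed over the 19 tested markers they measured 67.2, 167 and 40.8 CPM alone and 74.6, 354 and 40.7 CPM in co-culture. The highest sum was in the replicate 2 co-culture. Lyz2, the lysozyme of macrophages, was among the largest increases: 6.72, 47.4 and 1.69 CPM alone and 14.1, 157 and 7.69 CPM in co-culture, called in both paired fits (adjusted p = 0.000793 with 6 libraries, 3.02e-07 with 4). Its range over replicates was wider than its difference between cultures. Left without the replicate 2 co-culture, its fitted log2 difference over the remaining libraries was −0.98, against 1.45 over 18. That fit has no block and keeps replicate 2 of astrocytes alone (47.4 CPM) without its partner, so it does not compare within pairs. Within pairs 2 and 3 Lyz2 was higher by 1.69 and 1.40, and its direction was the same in 23 of 24 settings. Over the 19 tested markers 3 were higher in both pairs (15.8%) and 2 lower (10.5%), both under the background. Csf1r and Ptprc, defining receptors of these cells, were higher in pair 2 (7.01 against 21.6 CPM, 4.07 against 14.9 CPM) and at 0 or near it in both replicate 3 libraries. Aif1, a calcium-binding protein of microglia, had 4 reads alone and 0 in co-culture, and DESeq2 called it lower (adjusted p = 0.000949) on those reads. The markers Tmem119 and P2ry12 of resting microglia were at 0 in 5 and 4 of the 6 libraries. Summed markers of oligodendrocytes (191 to 504 CPM alone, 160 to 459 CPM in co-culture), of meninges (160 to 254 and 184 to 230 CPM) and of vessels (88.6 to 127 and 98.3 to 128 CPM) overlapped between the cultures. The median fitted differences were nonetheless negative in 24 of 24 settings for the vessel list (−0.85, or −0.51 without the smallest library) and the meningeal list (−0.53 and −0.32). The vessel median ranged from −1.94 to −0.0008 over the settings. Of 13 vessel markers 3 were lower in both pairs (23.1%, background 27.8%) and 1 higher. Of 11 meningeal markers 4 were lower (36.4%) and 3 higher (27.3%, background 22%). In pairs 2 and 3 the medians were −0.26 and 0 for vessels and 0.31 and −0.41 for meninges. Abcc9, a channel subunit of pericytes, had 62 reads alone and 27 in co-culture. The part of such cells in the interferon and Lyz2 differences was not tested.

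Several neuronal marker genes had reads almost only in the co-cultures, at low levels. The part of carried-over neurons in these reads was not tested. Dcx, a microtubule protein of young neurons, had 1 read over the 3 cultures of astrocytes alone and 275 reads over the co-cultures, or 1.25, 7.70 and 2.30 CPM, a pooled ratio of 205 (95% counting interval 36.6 to 8142). Both paired fits called it (adjusted p = 0.0262 with 6 libraries, 0.00525 with 4). L1cam, an adhesion molecule of axons, had 0 reads alone and 102 in co-culture, at least 25.4-fold higher when 3 reads over the group are set as the floor, and Nefl, the light neurofilament, 0 and 55 reads, at least 13.7-fold higher. These reads fell mainly in replicate 2: L1cam measured 0.526, 3.72 and 0 CPM and Nefl 0, 2.46 and 0 CPM in the co-cultures. Slc17a7, a vesicular glutamate transporter, had 1 read alone and 140 in co-culture, or 1.97, 3.09 and 0 CPM, a pooled ratio of 105 (95% counting interval 18.5 to 4159), and was listed at 0 in the replicate 3 co-culture. Further genes of the list overlapped between the cultures or were near 0. Stmn2 measured 155, 111 and 121 CPM alone and 255, 151 and 105 CPM in co-culture, Map2 47.1, 41.4 and 204 CPM against 94.4, 46.8 and 154 CPM, and Slc17a6, Rbfox3 and Snap25 were at 0 or under 0.3 CPM in each co-culture. Of the 20 tested neuronal markers, 4 were higher in both pairs (20%, near the background of 22%) and 0 lower (background 27.8%). The median fitted difference was −0.01 over 18 libraries and 0.50 without the smallest, and its direction was the same in 12 of 24 settings. Summed over the 20 tested markers the levels overlapped, at 205 to 425 CPM alone and 294 to 411 CPM in co-culture. Counting intervals here cover counting error only.

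The largest differences with a common direction in pairs 2 and 3 were picked by rule among genes of at least 10 CPM, and are a description. The 8 increases were Lyz2, Scarna6, Rsph3b, Anxa11, Sphk2, Slc26a6, Ppp1ccb and Faap100, and the 8 decreases Dynlrb1, Gm12191, Mt3, Tmem256, Bloc1s1, ND6, Mrps21 and Rnf7. The rule also asks for the same sign in pair 1 where the smallest library has at least 10 reads, which leaves out mt-Rnr1 (0.57 in pair 1, −1.57 and −1.76 in the others), and it leaves out the 30 genes with 0 reads in the same 8 libraries, described below. The last increase had a smaller pair difference of 0.94 and the next gene outside 0.91. The last decrease had −0.94 and the next, Itgb1bp1, −0.92. Ppp1ccb and Gm12191 are copies or predicted genes, whose reads may be shared with near-identical genes. Gm12191 was called in the 4-library paired fit (adjusted p = 0.0265). Outside this choice, Mmp3, a matrix protease named after its values were seen, measured 6.72, 206 and 44.5 CPM alone and 50.7, 50.2 and 23.6 CPM in co-culture and was called in that fit (−1.48, SE 0.26, adjusted p = 3.9e-05), with pair 1 opposite in direction on 1 read.

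Anxa11 (Entrez 11744), a calcium-dependent membrane-binding annexin, did not overlap between the cultures. It measured 13.4, 11.2 and 11.2 CPM alone, the first from 2 reads, and 50.5, 25.8 and 39.2 CPM in co-culture. Its fitted log2 difference was 1.74 (SE 0.60, unadjusted p = 0.00922, adjusted p = 1, edgeR over 18 libraries) and 1.76 without the smallest library, and both paired fits called it (adjusted p = 0.0384 with 6 libraries, 0.0223 with 4). Sphk2, which makes the lipid signal sphingosine 1-phosphate, measured 6.72, 21.6 and 14.7 CPM alone and 22.4, 55.0 and 32.4 CPM in co-culture, without overlap, and was called with 4 libraries only (adjusted p = 0.0391).

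Genes of short transcripts prevailed among the decreases. The median length of the transcripts was 2794 bases for the 6 increases with a length and 574.5 bases for the 6 decreases with one. Over 8439 genes with a length, the pair difference rank-correlated with length across genes at a Spearman rho of 0.16 in pair 2 and 0.25 in pair 3, as a description. From the shortest to the longest of 5 bins of equal size, the median difference ran from −0.11 to 0.08 in pair 2 and from −0.16 to 0.12 in pair 3. Dynlrb1, Tmem256, Bloc1s1, Mrps21 and Rnf7, which encode small proteins of dynein, membranes, lysosome positioning, the mitochondrial ribosome and ubiquitin ligases, were lower by values from −0.94 to −1.47 in these pairs, and none was called in a paired fit. The part of length in these differences, and in that of Mt3, another of the decreases picked by rule, was not tested. Since the trend covers long transcripts as well as short ones, the same holds for the increases and decreases of the other genes and lists described here.

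Pair 3 joins libraries that differ in another way. A set of 30 genes had 0 reads in the same 8 libraries of the series, among them both replicate 2 libraries of day 2 and replicate 3 of astrocytes alone, and reads in 8 further libraries, among them the replicate 1 and 3 co-cultures, with the 2 libraries of lowest depth left out of this count. Hnrnpk, a ubiquitous RNA-binding protein gene, measured 26.9, 0 and 0 CPM alone and 79.2, 0 and 89.9 CPM in co-culture, and Ntrk2, the receptor for BDNF in astrocytes, 356, 0 and 0 CPM against 397, 0 and 1258 CPM. Since Hnrnpk is used by nearly all cells, its values are given as listed at 0. All 16 calls of the fit of 16 libraries with the replicate block (0.0936% of genes) and 8 of the 26 calls of the 6-library paired fit were of this set.

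Further genes with reads in all libraries followed the same split. Eno1b, a copy of the glycolytic enolase gene, lay at 9.24 to 33.7 CPM in the 8 libraries and 334 to 1364 CPM in the 8 others. Ubb-ps, a ubiquitin pseudogene, lay at 41.2 to 94.4 against 223 to 419 CPM. The heat shock cognate gene Hspa8 (246 to 378 against 477 to 817 CPM) and the glycolytic Pgam1 (17.6 to 45.9 against 116 to 224 CPM) were apart as well, and both had been higher in each pair at day 2, by 1.11, 0.08 and 1.09 for Hspa8 and 0.59, 0.25 and 1.71 for Pgam1. In all, 201 tested genes (1.22%) lay higher in the 8 libraries with reads on the set and 12 (0.0726%) lower, without overlap. The 201 include the 28 tested genes of the set itself, which lie apart by definition. Of the 42 calls of the 4-library paired fit, 8 were of the first kind, Ubb-ps, Amd2 and Eno1b among them, and 34 overlapped, with Mt3, Dcx and Lyz2 among those. Anxa11 overlapped by its replicate 2 co-culture only, at 10.8 to 25.8 CPM in the first 8 libraries and 25.3 to 50.5 CPM in the others, so its pair 3 difference is also one across the split. For such genes the split and the culture cannot be told apart within pair 3, while pair 2 lies within one side of it.

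**Figure D4:**
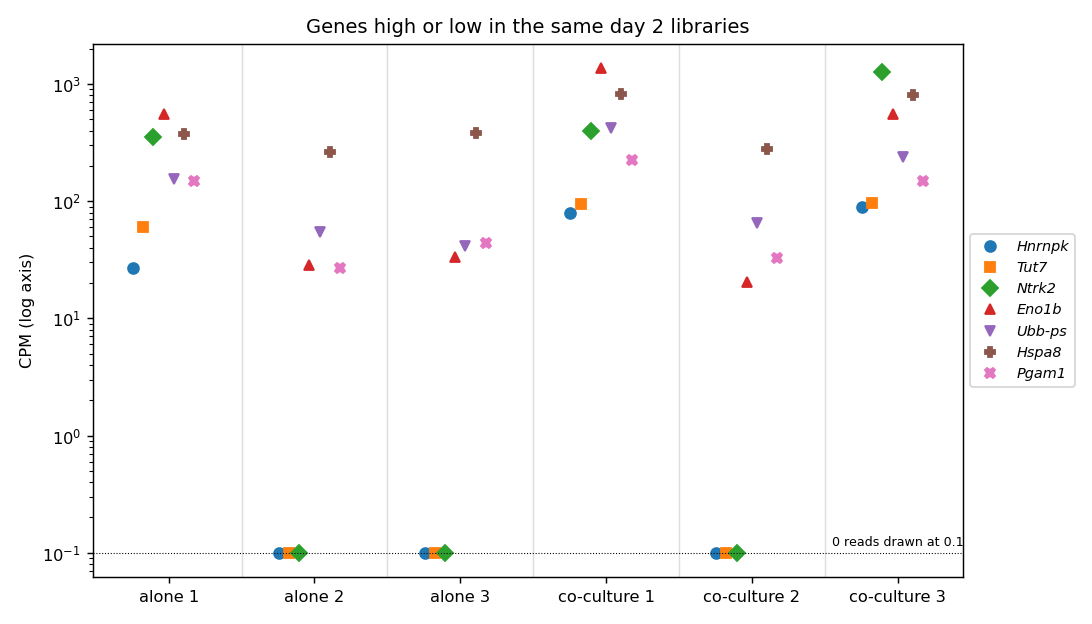
CPM on a log axis in the 6 libraries of day 2 for Hnrnpk, Tut7 and Ntrk2, which belong to the 30 genes with 0 reads in the same libraries, and for Eno1b, Ubb-ps, Hspa8 and Pgam1, which are low in those libraries (0 reads are drawn at 0.1). Both replicate 2 libraries and replicate 3 of astrocytes alone lie below the other 3 libraries for each gene except Hspa8, whose value in the smallest library (376 CPM) is next to that of replicate 3 of astrocytes alone (378 CPM).

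Mitochondrially encoded transcripts had the lowest unadjusted p values of the named lists, and they rest on the smallest library. The 13 genes of the mitochondrial genome's proteins had a median fitted difference of −2.74, all 13 lower in co-culture, and 6 with an unadjusted p under 0.05. Without the smallest library the median was −0.19 and 4 of 13 were higher. ND2, a subunit of respiratory complex I, measured 13674 CPM in that library against 65.4 and 551 CPM in replicates 2 and 3 of astrocytes alone and 130, 113 and 165 CPM in the co-cultures. ND6, the subunit coded on the opposite strand, measured 9748, 79.2 and 640 CPM alone and 22.9, 39.6 and 195 CPM in co-culture, lower in each pair, and was called in both paired fits (adjusted p = 0.00259 with 6 libraries, 3.9e-05 with 4). ND1 was lower in pairs 2 and 3 too (−0.69 and −1.76) and called in both (adjusted p = 0.000638 and 0.000466). ND5 was called with 6 libraries only (adjusted p = 0.049), where it measured 10911 CPM in the smallest library. COX2 and COX3, subunits of cytochrome oxidase, were higher in those pairs, while COX1 was higher in pair 2 (0.41) and lower in pair 3 (−0.27). COX3 measured 24.1 and 204 CPM alone and 110 and 356 CPM in co-culture in replicates 2 and 3, and COX2 19.0 and 136 against 28.2 and 425 CPM, both called with 4 libraries. The ribosomal RNA gene mt-Rnr1 measured 6972, 7620 and 24994 CPM alone and 10353, 2570 and 7372 CPM in co-culture, lower in pairs 2 and 3 only. The RNA had been treated to remove ribosomal RNA, and the part of that step in these levels was not tested.

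**Figure D5:**
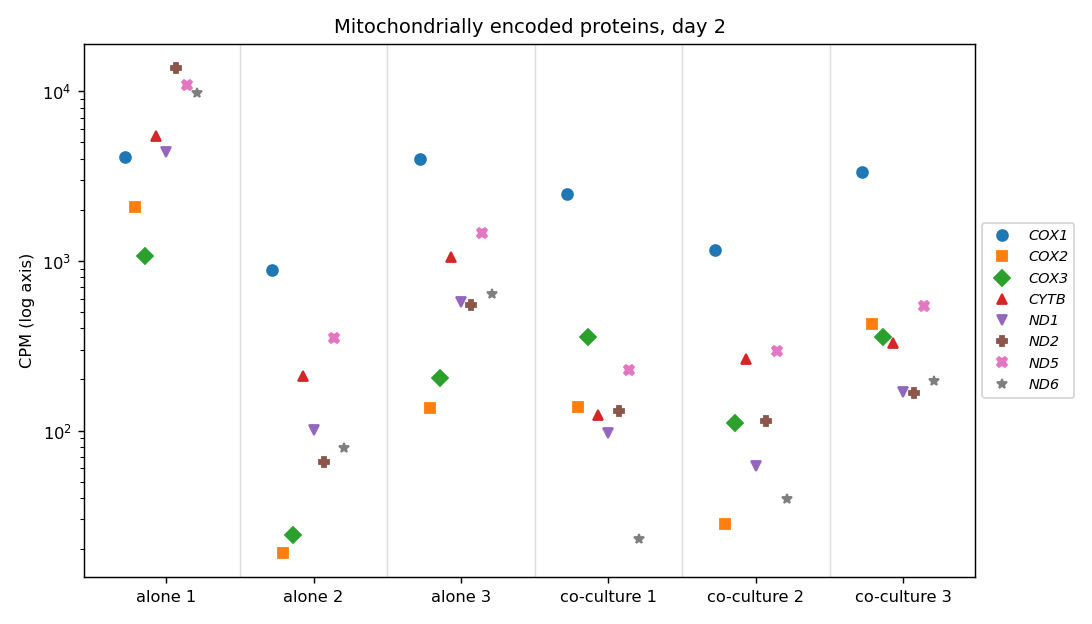
CPM on a log axis of 8 mitochondrially encoded protein genes in the 6 libraries of day 2. In replicate 1 of astrocytes alone ND2, ND5 and ND6 lie at 9748 CPM or above, while in the other 5 libraries ND6 lies between 22.9 and 640 CPM.

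Set beside the later days, the day 2 differences were not shown to be particular to day 2. In the same fit 0 of 16539 genes (0%) differed between the day 4 and the day 2 effect and 0 (0%) between the day 7 and the day 2 effect, at an adjusted p under 0.05 by edgeR's quasi-likelihood test of the interaction. Srebf2 had fitted log2 differences of 0.74 at day 2, 0.48 at day 4 and −0.02 at day 7. For Notch1 they were 0.74, 0.18 and −0.35, for Anxa11 1.74, 0.04 and −0.42, and for Mt3 −0.89, 0.03 and 0.06. The day 7 minus day 2 difference was −1.10 for Notch1 (SE 0.43, unadjusted p = 0.0188, adjusted p = 0.891). The cell cycle list had medians of −0.32, −0.25 and 0.54 and the cholesterol list 0.34, 0.12 and −0.02 at the 3 days, with the day 7 co-culture of replicate 1 also a library of lower depth, at 8966485 reads.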

How the data were processed

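Per the labels' protocols, total RNA of sorted astrocytes was depleted of ribosomal RNA (RiboGone) and made into libraries with SMARTer low-input kits for an Illumina HiSeq. The authors deposited read counts per gene, which were used as deposited. Subread and featureCounts with mm9 were used, per the submitters' processing notes. Versions, strand use and filters: not given in the sources used here. Reads of overlapping or antisense genes may therefore be shared. Genes are Entrez IDs, of which 24191 of 26301 had a RefSeq symbol. The table's 17 other columns of values were not used.

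Counts were analysed in R 4.3.3 with edgeR 4.0.16: TMM, filterByExpr by group, 6 group means over 18 libraries, the quasi-likelihood F test, and Benjamini-Hochberg adjustment over all tested genes at 0.05. Alternatives were DESeq2 1.42.0, limma-voom (limma 3.58.1), other scalings and filters, the replicate block, fewer libraries, and each library of day 2 or each replicate number left out. The procedure was tested on simulated data. Same-numbered libraries of day 2 share a date per the labels and were taken as pairs for that reason. Their deviations from group means correlated at 0.27 to 0.55, against −0.39 to −0.01 for other numbers. Deviations cancel out within a group, so positive values for same numbers push the others down. These correlations are therefore a description, not a test of the pairing. No 2 libraries of the same group agreed within sampling noise, and libraries of different groups were not compared in this way.

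Some genes the rule names are not reported here. The named genes were 38 genes fixed by list, genes called under an alternative (up to 5 each), the 8 largest increases and decreases shared by pairs 2 and 3 (at least 10 CPM on average), and up to 3 members per list alike in all 3 pairs. Others were named after their values were seen: examples within lists, the calls of the paired fits, and the genes that follow the library split. The members and the 37 gene lists were chosen with earlier results of these data known. Lists are described by counts, with no test of their own.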

Additional observations from a re-analysis of the deposited data

How the results depend on the processing

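The count of called genes at day 2 was 0 in the 18-library fit. It stayed 0 when each library of day 2 or each replicate number was left out (range 0 to 0). The same held with the replicate block over 18 or 17 libraries, with 2 other scalings, with no or a stricter filter, and with limma-voom. It was 16 over 16 libraries with the replicate block, 26 over the 6 libraries of day 2 with the block (25 without the 30 genes), 42 over 4 libraries with the block, and 17 with DESeq2. The 4-library fit and the fit without the 30 genes were added after seeing the data. The day 4 minus day 2 count was 14 over 16 libraries with the replicate block and 0 otherwise. The day 7 minus day 2 count was 23 in that fit and 4 with DESeq2, and 0 to 1 when replicates were left out (1 without replicate 2). All 16 calls of that fit at day 2 were of the 30 genes. Of the named genes called under a replicate block, Lyz2 turned to −0.98 without the replicate 2 co-culture and Gas1 to −1.02 without replicate 3. Both of these fits had no block, and the first kept replicate 2 of astrocytes alone without its partner. The direction was the same in 23 of 24 settings for Lyz2 and in 20 of 21 for Gas1. The cause of these shifts was not tested. The replicate block changed the call of named genes as given beside them, and of Agtpbp1, Gas1, Golm1, Kif27 and Tmem254a, which are of the 30 genes, and of 1 gene without a symbol that follows the same split. Depth limits mainly pair 1, where 1820 genes had 10 reads in the smallest library.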
